A study of Mus musculus with 12 samples.

Results

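Ccl3, Ccl4, Ccl5, Xcl1, Ccl1 and Cxcl10 are 6 chemokine genes that CD8 T cells can make, and they were chosen by name from the 32285 genes of the count matrices. Their RNA was followed in CD8 T cells of untreated NOD/ShiLtJ females aged 10 to 15 wk, a strain that develops autoimmune diabetes without any transgene. In each of 2 rounds, islets and spleens were pooled from 10 mice, so that a library averages over a pool and no single mouse can be followed. CD45.1+ CD8+ cells lacking CD4, B220 and CD11b were sorted with a Kd tetramer carrying the mimotope peptide NRP-V7, which binds T cells that recognize the islet antigen IGRP. By the study's account, the spleen cells were also gated as CD44+, a gate that is not described for the islet cells. The 3 groups were tetramer-negative cells from islets (islet IGRP-), tetramer-positive cells from islets (islet IGRP+) and tetramer-positive cells from spleen (spleen IGRP+), with 1 library a round in each. Islets were picked by hand after collagenase digestion, whereas splenocytes were enriched for CD8 T cells on magnetic beads before sorting, so tissue, gate and cell preparation cannot be told apart. The rounds were sequenced with different read lengths, and each round holds all 3 groups.

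Chemokines are small secreted proteins that guide leukocytes through G protein-coupled receptors. Ccl3, Ccl4 and Ccl5 are inflammatory chemokines of the CC family, and Ccl5 is stored and released by memory and effector CD8 T cells. Xcl1 attracts cross-presenting dendritic cells through Xcr1, Ccl1 is the ligand of Ccr8, and Cxcl10 is an interferon-induced ligand of Cxcr3, the receptor that brings T cells to inflamed islets.

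Cells were kept when fewer than 5% of their UMIs (unique molecular identifiers, each standing for 1 captured RNA molecule) were mitochondrial and when they held at least 200 genes and at most 3500 in islets or 2000 in spleen. That left 6429 and 8932 islet IGRP- cells, 1204 and 1598 islet IGRP+ cells, and 3524 and 2430 spleen IGRP+ cells in Rounds 1 and 2, which is 24117 of the 26818 barcodes listed. Their summed depth was 29153324 and 40469961 UMIs in islet IGRP-, 5880696 and 7980997 in islet IGRP+, and 9607921 and 6907642 in spleen IGRP+. The median cell held 3793 and 3869 UMIs in islet IGRP-, 3800 and 4216.5 in islet IGRP+, and 2590 and 2764.5 in spleen IGRP+, so spleen cells were the shallowest. Any pair of libraries shared 2 to 64 cell barcodes, and 0 of the shared barcodes carried the same T-cell receptor clone. As a check of the sort, 8 genes of CD8 T cell identity summed to 4872 and 4919 UMIs per 1000000 UMIs of the library (CPM) in islet IGRP-, 6262 and 6462 in islet IGRP+, and 6300 and 6344 in spleen IGRP+, with Cd3e the most abundant. The CD4 T cell list (Cd4, Foxp3 and Cd40lg) stayed at or below 2.05 CPM in every library.

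Levels are given first in the order Round 1, Round 2, as CPM of the UMIs summed over a library's kept cells. In such a sum, more cells with the RNA and more RNA per cell cannot be told apart, so shares of cells follow. Ccl5 measured 9265 and 7786 CPM in islet IGRP-, 17886 and 17062.5 in islet IGRP+, and 30604.9 and 28684 in spleen IGRP+. It was lowest in both islet IGRP- libraries and highest in both spleen libraries, with no overlap between the 3 groups. Ccl4 followed the same order, with 192 and 171 CPM in islet IGRP-, 294 and 337 in islet IGRP+, and 1129 and 802 in spleen IGRP+. Ccl3, whose product resembles that of Ccl4, measured 32.9 and 21.5 CPM in islet IGRP-, 65.1 and 52.0 in islet IGRP+, and 169.96 and 138 in spleen IGRP+. Ccl3, Ccl4 and Ccl5 thus shared one order of groups, in both rounds.

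Xcl1 had another order, with the peak in islet IGRP+. Xcl1 measured 312 and 289.7 CPM in islet IGRP-, 632 and 610.5 in islet IGRP+, and 64.1 and 66.0 in spleen IGRP+. Its 3 groups did not overlap, and the lowest islet library lay above both spleen libraries. Ccl1 was the scarcest of the 6, with 92 and 136 UMIs (3.16 and 3.36 CPM) in islet IGRP- and 42 and 34 UMIs (7.14 and 4.26 CPM) in islet IGRP+. In islet IGRP+ Round 1, however, 1 cell held 32 of the 42 UMIs. Without the cell richest in Ccl1 of each library, an alternative chosen after seeing the data, Ccl1 measured 2.54 and 2.22 CPM in islet IGRP- and 1.70 and 2.89 in islet IGRP+, so the order of the islet groups rests on single cells. No Ccl1 UMI was counted in spleen IGRP+, where 3 counts per library, the limit that a count of 0 allows, would have been 0.312 and 0.434 CPM. Cxcl10 measured 39.4 and 56.5 CPM in islet IGRP-, 36.1 and 40.2 in islet IGRP+, and 10.9 and 8.83 in spleen IGRP+. The islet groups overlapped for Cxcl10, and both spleen libraries lay below all 4 islet libraries.

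**Figure D1:**
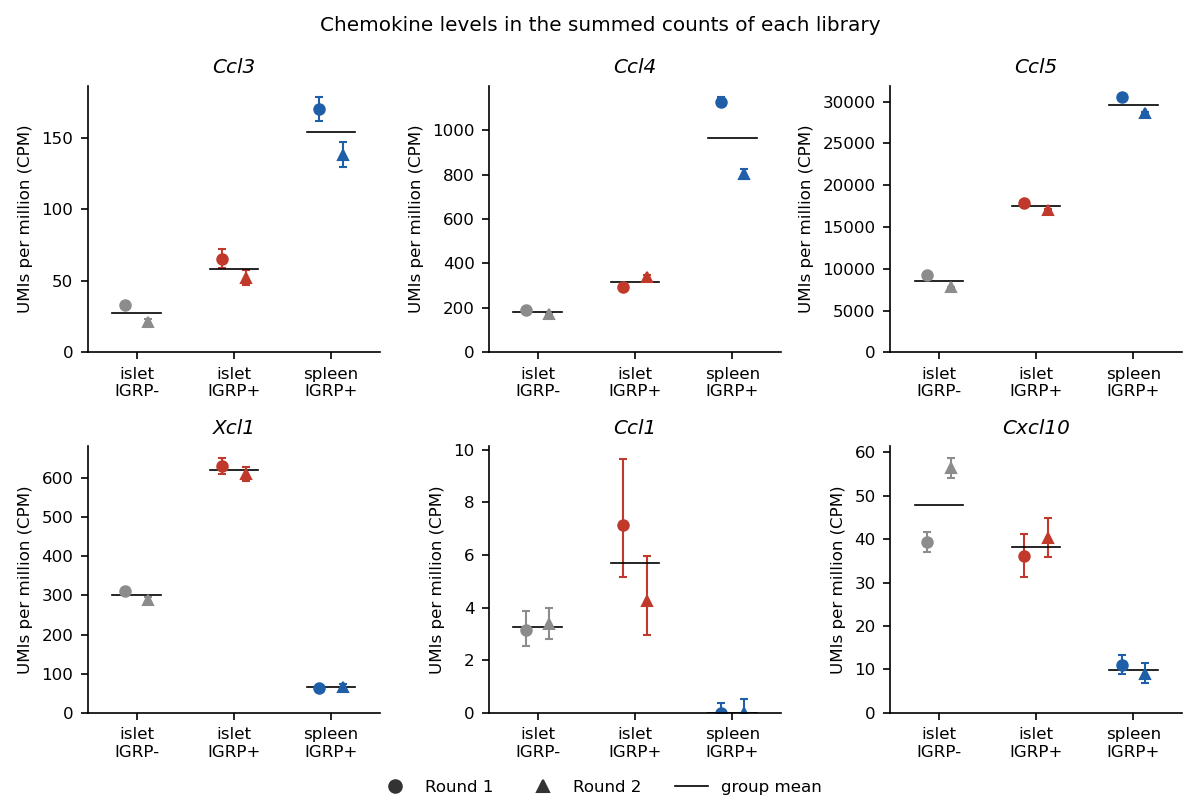
Each panel gives a chemokine's UMIs per 1000000 UMIs (CPM, vertical axis) in the summed counts of each library, by group and round, with 95% Poisson intervals that cover counting error only and a line at the group mean. The 2 spleen libraries lie highest for Ccl3, Ccl4 and Ccl5 (30604.9 and 28684 CPM for Ccl5) and lowest for Xcl1, Ccl1 and Cxcl10 (64.1 and 66.0 CPM for Xcl1).

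How the 6 genes stood relative to each other is given on CPM per kilobase of annotated exons, to be read beside the CPM above. The kit captured 5′ ends, so a UMI stands for 1 molecule whatever its length. CPM alone is therefore the more direct scale between genes, and where its order differs this is said. On the scale per kilobase, Ccl5 reached 9651 and 8111 in islet IGRP-, 18631 and 17774 in islet IGRP+, and 31880 and 29879 in spleen IGRP+. It ranked 1 among 32235 genes with a length in all 4 tetramer-positive libraries, and 3 and 4 in the islet IGRP- libraries. By CPM alone it ranked 1 in the former and 3 in both of the latter. Xcl1 came next in islets, at 597 and 554 CPM per kilobase in islet IGRP- and 1208 and 1167 in islet IGRP+, above Ccl4 at 291 and 259 and at 446 and 511 there. In spleen IGRP+ the order of these genes per kilobase was the opposite, with Ccl4 at 1710 and 1216 and Xcl1 at 123 and 126. Per kilobase, Ccl3 ranged from 28.1 in islet IGRP- to 222 in spleen IGRP+, Cxcl10 from 3.92 in spleen IGRP+ to 25.1 in islet IGRP-, and Ccl1 from 0 in spleen IGRP+ to 3.01 in islet IGRP+. The order of Ccl3 and Cxcl10 in islet IGRP- turned with the scale: Ccl3 was above Cxcl10 per kilobase (42.9 against 17.5 and 28.1 against 25.1) and below it in CPM (32.9 against 39.4 and 21.5 against 56.5). The per-kilobase value of Ccl1 is uncertain, because its annotated extent on chromosome 11 (82176657 to 82305690) joins 12 exon blocks.

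The comparison of islet IGRP+ with spleen IGRP+ asks how cells of one specificity differ between the target tissue and a lymphoid organ. Xcl1, Ccl1 and Cxcl10 were higher in islet IGRP+ cells, whereas Ccl3 and Ccl4 were lower. Counts were summed per library and tested with edgeR's quasi-likelihood F-test on all 6 libraries, and a gene is called here when its p fell below 0.05 after Benjamini-Hochberg adjustment across all 11277 genes in the fit. All 6 chemokines passed the filter on low counts. Of them, 3 were called higher in islet IGRP+, where 13.7% of all genes tested were, and 2 were called lower, where 12.9% were. The 5 calls in either direction stand against 26.6% of all genes (3004, of which 1549 higher and 1455 lower), so a call was common in this comparison. Ccl1 had 0 counts in spleen and passed the filter on low counts through the islet groups alone, so its call adds no support to these counts. The median log2 fold change of the 6 was 0.67, against -0.03 over all genes tested. With the round as a block in a paired fit, 6215 of the 11277 genes were called, 3162 higher and 3053 lower, Ccl5 among the latter.

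Xcl1 had the best-supported difference. It rose by a log2 fold change of 3.35 (SE 0.22; adjusted p = 0.00144), which is 10.2-fold, and the CPM ratio within rounds was 9.85 and 9.25. Both islet IGRP+ libraries lay above both spleen libraries. An exact two-sided permutation test of the 4 CPM values gave p = 0.333, the smallest value that 2 against 2 libraries allow. Cxcl10 rose by 2.02 on the log2 scale (SE 0.25; adjusted p = 0.00518), or 4.05-fold, and was higher in 2 of 2 rounds, by 3.30 and 4.55 times. Ccl1 was at least 15.3-fold higher in islet IGRP+ when the spleen was set to its limit of 3 counts per library (higher in 2 of 2 rounds). Without the cell richest in Ccl1 of each library it was at least 6.15-fold higher. Its edgeR call (adjusted p = 0.00550), made again without those cells, adds no support, because Ccl1 passed the filter through the islet groups alone. Its fitted fold change against a group at 0 is no estimate of size and is not given.

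Ccl4 fell by 1.55 on the log2 scale (SE 0.30; adjusted p = 0.0155) in islet IGRP+ relative to spleen IGRP+, and was lower in both rounds, by 3.84 and 2.38 times in CPM. Ccl3 fell by 1.30 (SE 0.35; adjusted p = 0.0399), with CPM 2.61 and 2.66 times lower in the rounds. In fits without the round as a block, the Ccl3 call was the least stable. It was lost without islet IGRP+ Round 1 (log2 fold change -1.62, adjusted p = 0.0668), islet IGRP+ Round 2 (-1.04, 0.144), spleen Round 1 (-1.02, 0.156) or spleen Round 2 (-1.55, 0.0742), and its adjusted p ran from 1.05e-06 to 0.156 over all alternatives. For Ccl4, the adjusted p exceeded 0.05 without islet IGRP+ Round 1 (log2 fold change -1.58, adjusted p = 0.0656), islet IGRP+ Round 2 (-1.52, 0.0671) or spleen Round 1 (-1.14, 0.0567), with 3.86e-06 to 0.0671 over all alternatives. Ccl5 was 1.71 and 1.68 times lower in islet IGRP+ than in spleen in the rounds, and its log2 fold change of -0.67 (SE 0.35; adjusted p = 0.202) did not pass the test. With the round as a block the log2 fold change of Ccl5 was again -0.67 and the adjusted p was 0.00237, past the threshold and the lowest of its alternatives (0.00237 to 0.454). With 1 library left out, the log2 fold change ran from 3.19 to 3.50 for Xcl1 and from 1.77 to 2.32 for Cxcl10. Ccl1 had 0 counts in spleen, so leaving out a library cannot show whether its call is stable.

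The comparison of islet IGRP+ with islet IGRP- asks how tetramer-positive and -negative cells of one tissue differ, and it uses the same islet IGRP+ libraries as the comparison with spleen. The group means of Ccl5, Xcl1, Ccl3 and Ccl4, and of Ccl1 through a single cell, were higher in islet IGRP+. In the fit without the round as a block, however, none of the 6 chemokines passed the test. Called were 0 of 6 in either direction, against 1.19% of all genes tested (134), 0 higher against 0.151% (17 genes) and 0 lower against 1.04% (117 genes). At an unadjusted p below 0.05 this edgeR test gave 1982 of 11277 genes, and DESeq2 called 504 genes, among them Xcl1 (log2 fold change 1.07) and Ccl5 (1.06). With the round as a block, which pairs the populations of a pool, edgeR called 3442 of 11277 genes, 1624 higher and 1818 lower. Ccl3, Ccl4, Ccl5 and Xcl1 were among those called higher there. Leaving out 1 library left between 0 and 30 genes called. The median log2 fold change of the 6 chemokines was 0.93, against -0.01 over all genes.

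Xcl1 came closest in the fit without block, with a log2 fold change of 1.05 (SE 0.20; adjusted p = 0.0848), or 2.06-fold. Its CPM was 2.02 and 2.11 times higher in the rounds. Ccl5 had a log2 fold change of 1.03 (SE 0.35; adjusted p = 0.220) and was 1.93 and 2.19 times higher. Ccl3 had one of 1.11 (SE 0.35; adjusted p = 0.199), with ratios of 1.98 and 2.42, and Ccl4 one of 0.79 (SE 0.29; adjusted p = 0.247), with ratios of 1.53 and 1.97. All 4 genes were higher in 2 of 2 rounds. Under the block, where calls were common over all genes, these 4 passed the threshold. Their log2 fold changes were 1.04 for Xcl1 (adjusted p = 2.62e-05), 1.04 for Ccl5 (0.000316), 1.13 for Ccl3 (1.97e-05) and 0.80 for Ccl4 (0.00187). These were the lowest adjusted p values of all alternatives, whose highest were 0.510 for Xcl1, 0.740 for Ccl5, 0.687 for Ccl3 and 0.736 for Ccl4. Ccl1 (log2 fold change 0.82, SE 0.41; adjusted p = 0.370) and Cxcl10 (-0.32, SE 0.23; adjusted p = 0.502) passed in neither fit. Without the cell richest in Ccl1 of each library, the log2 fold change of Ccl1 was -0.07, the other direction.

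Side by side, the log2 fold changes of islet IGRP+ against islet IGRP- and against spleen IGRP+ were 1.05 and 3.35 for Xcl1, and -0.32 and 2.02 for Cxcl10. For Ccl3 they were 1.11 and -1.30, for Ccl4 0.79 and -1.55, and for Ccl5 1.03 and -0.67. Whether a gene's difference was larger in one comparison than in the other was not tested, since both rest on the same islet IGRP+ libraries.

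Shares of cells were compared after each cell was thinned at random to 1000 UMIs, because spleen cells were shallower. The thinning left out 193 of 15361 islet IGRP- cells, 69 of 2802 islet IGRP+ cells and 129 of 5954 spleen IGRP+ cells with fewer UMIs. Brackets hold exact (Clopper-Pearson) 95% intervals, which cover counting error only. As a background, each share is set beside that of naive-like cells, which held at least 1 UMI of each of Ccr7 and Lef1 and none of Pdcd1, Gzmb, Gzmk, Cxcr6 and S100a4, a definition chosen after seeing the data. After thinning there were 1612 and 2321 such cells in islet IGRP- (median 3591.5 and 3589 UMIs before thinning) and 279 and 150 in spleen IGRP+ (median 3694 and 4021), but 5 and 9 in islet IGRP+, too few for a share. These cells serve as background for Ccl3, Ccl4, Ccl5, Xcl1, Ccl1 and Cxcl10 alike, as a comparison class and not as a measure of free RNA. Cells with Gzmk are left out of it, and Gzmk went with Ccl5 across cells (mean Pearson's r 0.402). Low shares of such genes were thus partly set by the definition. The spleen class came from CD44+ cells and held 2437 and 4356 CPM of Ccl5, against 559 and 538 in islet IGRP-. Whether that RNA was the cells' own was not tested.

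A Ccl4 UMI was found in 6.83% [6.22, 7.48] and 6.58% [6.07, 7.12] of islet IGRP- cells, in 11.8% [10.0, 13.8] and 14.9% [13.2, 16.8] of islet IGRP+ cells, and in 48.6% [46.9, 50.3] and 40.5% [38.5, 42.5] of spleen IGRP+ cells. Without thinning the Ccl4 shares were 14.8% and 14.2%, 25.9% and 29.98%, and 63.2% and 59.6%. Naive-like cells held Ccl4 in 0.496% and 0.603% in islet IGRP- and in 5.02% and 8.67% in spleen, far below their libraries. Thus the spleen libraries stood apart from all 4 islet libraries for Ccl4, in shares as in CPM. The cells with Ccl4 held a mean of 3.18 and 2.84 of its UMIs in islet IGRP-, 2.62 and 2.74 in islet IGRP+, and 2.69 and 2.17 in spleen after thinning. The groups therefore differed more in how many cells had a Ccl4 UMI than in how many UMIs such a cell had.

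Ccl3 was sparser, with a UMI in 2.18% [1.83, 2.57] and 1.28% [1.06, 1.54] of islet IGRP- cells, 4.50% [3.39, 5.84] and 4.95% [3.93, 6.15] of islet IGRP+ cells, and 12.7% [11.7, 13.9] and 10.1% [8.93, 11.4] of spleen IGRP+ cells. Unthinned, Ccl3 was detected in 5.69% and 3.39%, 12.2% and 11.95%, and 22.2% and 18.9%. Among naive-like cells Ccl3 was found in 0.0620% and 0.0431% in islet IGRP-, and in 0.717% and 2.67% in spleen. The order of groups for Ccl3 was that of its CPM, and no library's interval reached that of another group.

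Ccl5 was the most widely detected of the 6. Its UMIs were found in 57.6% [56.4, 58.8] and 56.5% [55.4, 57.5] of islet IGRP- cells, 90.7% [88.9, 92.3] and 90.4% [88.8, 91.8] of islet IGRP+ cells, and 87.9% [86.7, 88.9] and 91.8% [90.6, 92.9] of spleen IGRP+ cells. The unthinned Ccl5 shares were 63.99% and 65.8%, 95.9% and 94.6%, and 89.4% and 93.3%. Naive-like cells gave 9.80% and 13.6% in islet IGRP- and 21.1% and 32.7% in spleen, the highest background of any of the 6 genes. No order is read between the Ccl5 shares of the tetramer-positive groups, since they did not follow the CPM. What did differ between them was the number of Ccl5 UMIs per cell with one: after thinning its mean was 18.0 and 14.5 in islet IGRP-, 26.4 and 22.8 in islet IGRP+, and 38.5 and 33.2 in spleen IGRP+.

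Xcl1 was found in 12.5% [11.7, 13.3] and 11.3% [10.6, 11.9] of islet IGRP- cells, 21.9% [19.6, 24.4] and 25.9% [23.7, 28.1] of islet IGRP+ cells, and 4.90% [4.20, 5.67] and 5.23% [4.36, 6.20] of spleen IGRP+ cells. The unthinned Xcl1 shares were 24.3% and 22.9%, 37.8% and 43.4%, and 10.0% and 11.1%. Naive-like islet IGRP- cells held Xcl1 in 1.80% and 1.59%, and naive-like spleen cells in 1.43% [0.392, 3.63] and 2.67% [0.731, 6.69]. In islet IGRP-, then, Xcl1 lay well above the background, and in spleen the interval of the background reached that of all cells in Round 2 but not in Round 1. A cell with Xcl1 held a mean of 2.01 and 2.11 of its UMIs in islet IGRP-, 2.59 and 2.17 in islet IGRP+, and 1.17 and 1.23 in spleen after thinning.

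Cxcl10 was found in 2.27% [1.92, 2.67] and 3.13% [2.77, 3.51] of islet IGRP- cells, 1.70% [1.04, 2.61] and 1.86% [1.25, 2.67] of islet IGRP+ cells, and 1.07% [0.756, 1.47] and 0.843% [0.516, 1.30] of spleen IGRP+ cells. Unthinned, Cxcl10 was detected in 7.14% and 8.07%, 6.15% and 7.32%, and 2.27% and 1.98%. Naive-like cells of islet IGRP- held Cxcl10 in 1.80% [1.21, 2.57] and 2.59% [1.98, 3.32], with intervals that overlap those of their libraries, so the shares of islet IGRP- were not separated from this background. Islet IGRP+ had no such background of its own. By CPM, naive-like cells held 23.7 and 33.1 of Cxcl10, against 43.0 and 62.5 in the cells of these libraries that were neither naive-like nor of another type. In spleen, 0 of 279 and 0 of 150 naive-like cells had a Cxcl10 UMI after thinning, with exact intervals of up to 1.31% and 2.43% that hold the shares of all spleen cells. Whether Cxcl10 RNA set free by other islet cells is part of the difference from spleen was not tested.

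Ccl1 UMIs came from very few cells. After thinning they were in 7 and 8 cells of islet IGRP- (0.110% [0.0444, 0.227] and 0.0906% [0.0391, 0.178]) and in 2 and 7 cells of islet IGRP+ (0.170% [0.0206, 0.612] and 0.450% [0.181, 0.925]). The intervals of these groups overlapped in Round 1 and narrowly missed each other in Round 2 (0.178 against 0.181). No spleen cell had a Ccl1 UMI, for which the exact interval reaches up to 0.107% and 0.155% of cells. Unthinned, Ccl1 was in 17 and 21 cells of islet IGRP- (0.264% and 0.235%) and 6 and 11 cells of islet IGRP+ (0.498% and 0.688%). The cell richest in Ccl1 held 76.2% of its UMIs in islet IGRP+ Round 1 and 32.4% in Round 2. No naive-like cell had a Ccl1 UMI after thinning.

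**Figure D2:**
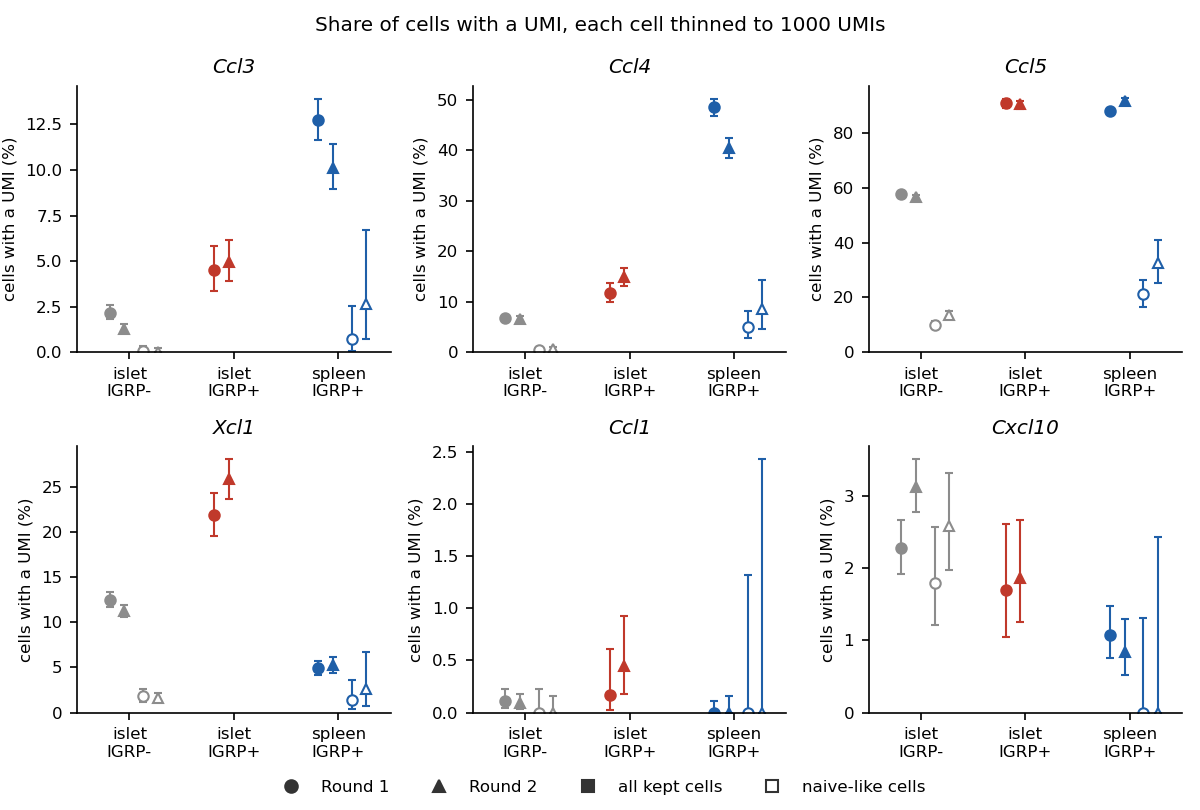
Each panel gives the percent of cells with at least 1 UMI of a chemokine (vertical axis) after thinning each cell to 1000 UMIs, by group and round, with exact 95% intervals; filled points are all kept cells and open points naive-like cells, drawn for islet IGRP- and spleen IGRP+. Ccl4 reaches 48.6% and 40.5% in spleen IGRP+, Xcl1 reaches 21.9% and 25.9% in islet IGRP+, and the Cxcl10 points of islet IGRP- (2.27% and 3.13%) lie within the intervals of the naive-like cells of their rounds.

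The UMIs of each gene were unevenly spread over cells. The 1% of cells richest in Ccl4 held 53.0% and 51.4% of its UMIs in islet IGRP-, 35.95% and 31.2% in islet IGRP+, and 9.22% and 8.71% in spleen IGRP+. For Ccl3 the same share was 57.8% and 72.5%, 36.3% and 34.9%, and 19.3% and 23.1%. Both genes were thus more concentrated in a small part of the cells in islets than in spleen. In cell numbers, 50% of all Ccl4 UMIs lay in 56 and 84 cells of islet IGRP-, 23 and 40 of islet IGRP+, and 416 and 288 of spleen IGRP+. Ccl5 was the most even, with 7.32% and 8.66%, 4.99% and 4.91%, and 3.50% and 3.55% of its UMIs in the richest 1% of cells. Xcl1 differed little between the groups by this measure (32.2% and 34.3%, 29.2% and 24.1%, 27.9% and 27.4%). The richest 1% of cells held 45.0% and 47.0% of Cxcl10 in islet IGRP-, 46.2% and 53.0% in islet IGRP+, and 57.1% and 60.7% in spleen. Single cells held up to 39 and 56 Cxcl10 UMIs in islet IGRP-, 15 and 34 in islet IGRP+, and 4 and 4 in spleen. These highest counts are unthinned, and spleen cells were shallower and kept only up to 2000 genes.

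Most tetramer-positive cells had at least 1 of the 6 chemokines. After thinning, cells with none made up 37.3% and 38.6% of islet IGRP-, 4.84% and 4.31% of islet IGRP+, and 11.9% and 7.92% of spleen IGRP+. At least 2 of the 6 chemokines were found in 15.7% and 15.1% of islet IGRP- cells, 30.1% and 36.0% of islet IGRP+ cells, and 54.6% and 46.9% of spleen IGRP+ cells. No group overlapped another by either measure. Cells with 4 or more of the 6 were rare, between 0.215% and 0.643% in every library, and no cell had all 6. With Ccl5 set aside, at least 1 of the other chemokines was found in 20.3% and 19.6% of islet IGRP- cells, 33.9% and 40.6% of islet IGRP+ cells, and 54.9% and 47.2% of spleen IGRP+ cells.

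Coexpression is given as the number of thinned cells with UMIs of both genes, divided by the number that their separate shares would give in that library if independent. Cells of a library share its depth and its free RNA, so these ratios are descriptions without a test. Among pairs without Ccl1, Ccl3 and Ccl4 had the highest ratio in all 4 islet libraries. They were found together in 77 and 56 cells of islet IGRP- (8.16 and 7.53 times the independent number), 26 and 35 of islet IGRP+ (4.16 and 3.05 times), and 309 and 156 of spleen IGRP+ (1.45 and 1.61 times). Of cells with Ccl3, 55.8% and 49.6%, 49.1% and 45.5%, and 70.2% and 65.0% also had Ccl4, against 5.74% and 6.02%, 10.0% and 13.3%, and 45.4% and 37.7% of cells without Ccl3. The lower ratios in spleen thus went with a high share of Ccl4 among all cells, not with fewer cells that had both. Without thinning the Ccl3 and Ccl4 ratios were 4.20 and 4.51, 2.21 and 2.24, and 1.33 and 1.37, in the same order of groups.

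Ccl5 accompanied both genes. Of cells with Ccl4, 93.5% and 93.5% had Ccl5 in islet IGRP-, 97.8% and 97.4% in islet IGRP+, and 99.8% and 99.8% in spleen IGRP+. The Ccl4 and Ccl5 ratios were 1.62 and 1.66, 1.08 and 1.08, and 1.14 and 1.09, with little room above 1 where nearly all cells had Ccl5. Of cells with Ccl3, between 91.2% and 100% had Ccl5 in each library.

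Over all thinned cells of a library, Xcl1 and Ccl5 went together in islet IGRP- and apart in islet IGRP+. In islet IGRP-, Xcl1 was found in 15.2% and 14.5% of cells with Ccl5 and in 8.75% and 7.02% of cells without it. In islet IGRP+ it was in 19.7% and 23.1% of cells with Ccl5 but in 43.1% and 52.0% of cells without it, in both rounds. In spleen IGRP+ the Xcl1 shares were 5.37% and 5.51% with Ccl5 and 1.43% and 2.05% without. The observed-to-independent ratios of Xcl1 and Ccl5 were accordingly 1.22 and 1.29, 0.90 and 0.89, and 1.10 and 1.05. Cells lacking Ccl5 were few in islet IGRP+, and the tests compare libraries and not cells, so the difference between groups was not tested. Naive-like cells were included, 1615 and 2324 of the kept cells in islet IGRP- but 5 and 9 in islet IGRP+. In islet IGRP- they held 559 and 538 CPM of Ccl5 and 47.8 and 31.4 of Xcl1. Kept cells neither naive-like nor of another type held 11675 and 9970.5 CPM of Ccl5 and 387 and 363 of Xcl1. The part of naive-like cells in these ratios was not tested.

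The other pairs with Xcl1 were smaller in number. Xcl1 and Cxcl10 were found together in 35 and 57 cells of islet IGRP- (1.95 and 1.84 times the independent number), 8 and 12 of islet IGRP+ (1.83 and 1.60) and 6 and 2 of spleen IGRP+ (3.31 and 1.91). In spleen this ratio was unstable, at 0.987 and 2.57 (4 and 6 cells) with cells thinned to 2000 UMIs, so no link is read there. Of the cells with Ccl1, 6 of 7 and 7 of 8 in islet IGRP- and 1 of 2 and 6 of 7 in islet IGRP+ also had Xcl1, and none of them had Ccl3. Without thinning, Ccl3 was in 4 of 17 and 0 of 21 cells with Ccl1 in islet IGRP-, and in 2 of 6 and 0 of 11 in islet IGRP+. Ccl3 and Xcl1 gave 2.32 and 1.97 in islet IGRP-, 0.86 and 0.65 in islet IGRP+, and 0.97 and 1.20 in spleen. Ccl4 and Xcl1 gave 1.59 and 1.59, 1.15 and 0.93, and 1.08 and 1.10. So Ccl3 and Ccl4 went with Xcl1 over all cells of islet IGRP-, naive-like cells included, and hardly or not at all in the tetramer-positive groups. Ccl5 and Cxcl10 gave ratios below 1 in islets (0.66 and 0.69 in islet IGRP-, 0.66 and 0.76 in islet IGRP+). In spleen, all of the 37 and 20 cells with Cxcl10 also had Ccl5. The spleen ratios of 1.14 and 1.09 are therefore the highest possible there, since nearly all cells had Ccl5.

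**Figure D3:**
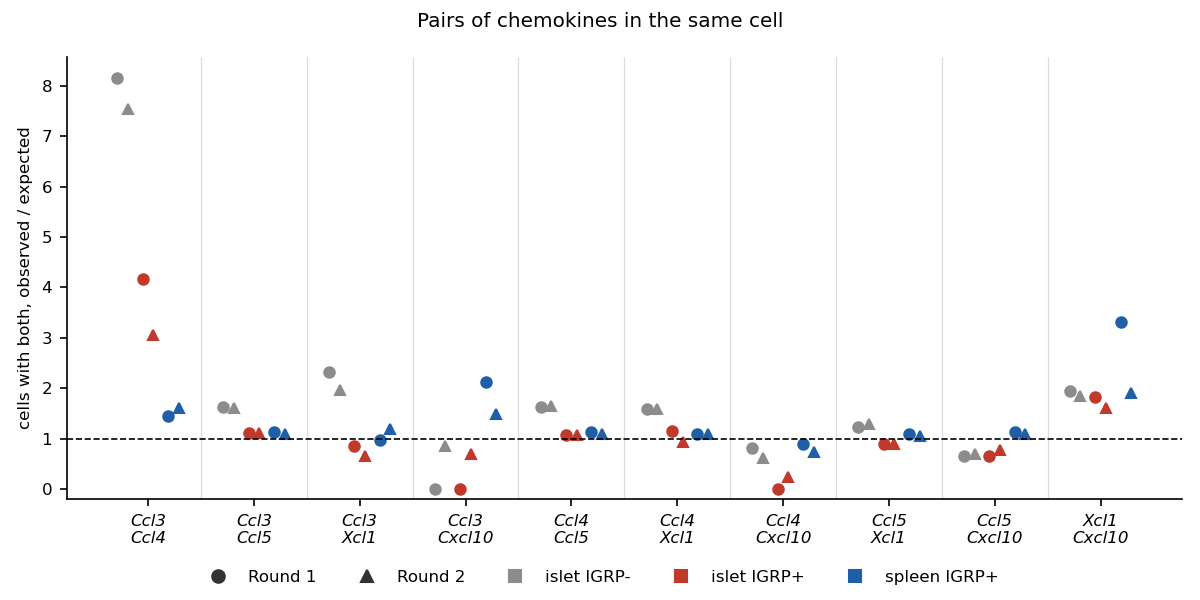
For 10 pairs of chemokines, the vertical axis gives the number of thinned cells with UMIs of both, divided by the number expected if the genes were independent, with 1 point for each library and a dashed line at 1. Ccl3 with Ccl4 lies at 8.16 and 7.53 in islet IGRP-, and Ccl5 with Xcl1 lies above 1 in islet IGRP- (1.22 and 1.29) and below it in islet IGRP+ (0.90 and 0.89). Naive-like cells are included, and their part in these ratios was not tested.

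The genes most like each chemokine across cells were ranked by Pearson's r of log2(1 + UMIs per 10000), averaged over the libraries in which both were in at least 1% of cells, among 10104 genes. Cells of a library share its depth and free RNA, so r is a description. Ccl4 and Ccl3 were each other's closest gene (mean r 0.373 over 6 libraries), followed for Ccl4 by Ccl5 (0.312) and Nkg7 (0.263) and for Ccl3 by Ccl5 (0.171) and Nkg7 (0.171). Nkg7, a granule protein of cytotoxic cells, was also closest to Ccl5 (0.574), ahead of the granzyme Gzmk (0.402) and S100a6 (0.400). For Xcl1 the first 3 were the costimulatory receptor Tnfrsf4 (0.258), its ligand Tnfsf4 (0.253) and Nrgn (0.213), each over the 4 islet libraries. Genes also detected in spleen were averaged over 6 libraries, so this order depends in part on which libraries count: Tnfrsf9, at a mean of 0.200, ran from 0.0543 to 0.343, above the highest r of Tnfrsf4 (0.310). For Cxcl10 it was Tnfrsf4 (0.209), the activation marker Cd83 (0.149) and Xcl1 (0.129), values that are weak in sparse counts. Ccl5 was at the far end for Cxcl10, ranked 10104 with a mean r of -0.118. The mean r of Ccl5 with Xcl1 was -0.0878, from -0.442 to 0.107 over libraries. Ccl1 was in under 1% of cells everywhere and was not ranked.

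Genes that T-cell receptor signals induce were set beside the chemokines as a list of 16, all of which were tested. Against spleen IGRP+, 6 of them were called higher in islet IGRP+ and 4 lower (median log2 fold change 0.43), and against islet IGRP- 0 were called (median -0.22). For this and each list that follows, the same over all genes tested was 13.7% higher and 12.9% lower against spleen (median -0.03), and 0.151% higher and 1.04% lower against islet IGRP- (median -0.01). Tnfrsf9, a costimulatory receptor, measured 143 and 151 CPM in islet IGRP-, 287 and 344 in islet IGRP+, and 9.78 and 6.95 in spleen IGRP+, while the cytokine Ifng measured 74.1 and 67.8, 76.7 and 82.6, and 372 and 257. Against spleen, Tnfrsf9 rose by 5.29 on the log2 scale (SE 0.29; adjusted p = 0.00120, higher in 2 of 2 rounds), and Ifng fell by 1.92 (SE 0.29; adjusted p = 0.00863, lower in 2 of 2 rounds). Ifng therefore lay with Ccl3 and Ccl4 in its order of groups, highest in spleen. In single cells, Ccl4 and Ifng occurred together at 3.42 and 3.07 times the independent number in islet IGRP-, 2.53 and 2.44 times in islet IGRP+, and 1.21 and 1.27 times in spleen IGRP+. Xcl1 and Tnfrsf9 did so at 2.24 and 2.38 times in islet IGRP-, 1.11 and 1.23 times in islet IGRP+, and 3.03 and 2.25 times in spleen, the last from 4 and 2 cells.

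Cytotoxic and coinhibitory genes were set beside the chemokines in the same way. Of 14 cytotoxic effector genes, 4 were called higher and 4 lower in islet IGRP+ against spleen (median -0.17; all genes 13.7% and 12.9%, median -0.03), and against islet IGRP- 0 higher and 1 lower, Gzma (median 0.54). Of 6 coinhibitory receptors, all 6 were called higher against spleen (median 3.85), and against islet IGRP- 2 were, Pdcd1 and Entpd1 (median 1.12; all genes 0.151% higher, median -0.01). Ccl3 and Havcr2, which encodes the inhibitory receptor TIM-3, occurred together at 4.76 and 5.03 times the independent number in islet IGRP- and 2.02 and 2.05 times in islet IGRP+. Ccl4 and Havcr2 gave 3.18 and 3.31, and 1.41 and 1.70. For Xcl1 and Havcr2 the ratios were 0.91 and 0.79, and 0.28 and 0.30. In islet IGRP+ the ratio with Havcr2 was thus below 1 for Xcl1 and above 1 for Ccl3 and Ccl4.

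Of 6 genes of naive T cells, 5 were called lower in islet IGRP+ against spleen (median -3.00), but not Ccr7, and 3 against islet IGRP-, S1pr1, Il7r and Lef1 (median -2.74). Their summed CPM was 1639 and 2284 in islet IGRP-, 330.4 and 621 in islet IGRP+, and 1862 and 2620.3 in spleen IGRP+. Ccr7 measured 467 and 943 CPM in islet IGRP-, 153 and 315 in islet IGRP+, and 108 and 135 in spleen, and so was higher in islet IGRP+ than in spleen in 2 of 2 rounds (log2 fold change 1.02, SE 0.38; adjusted p = 0.0990). In islet IGRP+, Xcl1 and Ccr7 occurred together at 2.14 and 1.87 times the independent number, but at 0.56 and 0.56 in islet IGRP- and 0.55 and 0.76 in spleen. Xcl1 and Tcf7, a transcription factor of stem-like T cells, gave 1.03 and 1.12 in islet IGRP-, 1.65 and 1.64 in islet IGRP+, and 1.28 and 1.20 in spleen. Ccl4 and Ccr7 stayed below 1 in all 6 libraries, at 0.21 and 0.27, 0.64 and 0.61, and 0.45 and 0.61. The part of naive-like cells in the islet differences was not tested.

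Of the interferon-stimulated genes, a family to which Cxcl10 also belongs, 12 of 13 were tested: 0 were called against islet IGRP- (median log2 fold change -0.55), and against spleen 0 were higher and 2 lower (median -0.14). Isg15 measured 69.4 and 131 CPM in islet IGRP-, 70.2 and 119 in islet IGRP+, and 47.6 and 61.2 in spleen IGRP+ (log2 fold change 0.88 against spleen, SE 0.31; adjusted p = 0.0834, higher in 2 of 2 rounds). Cxcl9, named after its values were seen, had 193 and 15 UMIs in islet IGRP-, 6 and 25 in islet IGRP+ and 0 in spleen, and was not called. Cxcl10 and Isg15 occurred together at 2.11 and 1.71 times the independent number in islet IGRP-.

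Of 6 receptor genes, 2 passed the filter on low counts, 1 was called higher against spleen (median log2 fold change 1.79) and 0 against islet IGRP- (median 0.08). Ccr8, the receptor of Ccl1, measured 16.2 and 21.1 CPM in islet IGRP-, 18.2 and 32.1 in islet IGRP+, and 1.04 and 0.579 in spleen IGRP+, and rose against spleen by 4.94 on the log2 scale (SE 0.40; adjusted p = 0.00203, higher in 2 of 2 rounds). Like Ccl1 it was an islet gene in these libraries. Cxcr3, the receptor of Cxcl10, measured 56.1 and 116, 47.1 and 98.99, and 128 and 276 CPM, and its Round 2 value was the larger in each group. Xcr1, the receptor of Xcl1, stayed at or below 0.549 CPM in every library, and Ackr2 had 0 counts in all 6. In islet IGRP- cells, Xcl1 and Ccr8 occurred together at 3.80 and 4.24 times the independent number, and in islet IGRP+ at 1.78 and 1.504 times.

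Among 34 chemokine ligand genes, 9 had 0 counts in all 6 libraries and 12 passed the filter. Their summed CPM was 9868 and 8341 in islet IGRP-, 18935 and 18125 in islet IGRP+, and 31995 and 29716 in spleen IGRP+, nearly all of it Ccl5. Against spleen, 4 were called higher and 2 lower (median log2 fold change 0.97), and against islet IGRP- 0 were called (median 0.70). The calls were those of 5 of the 6 chemokines described here and of Cxcl16, named after its values were seen, which encodes a transmembrane ligand of Cxcr6. That of Ccl1 adds no support here either. Cxcl16 measured 2.74 and 2.03, 1.70 and 2.26, and 0.312 and 0.869 CPM (log2 fold change 1.90 against spleen, SE 0.54; adjusted p = 0.0471, higher in 2 of 2 rounds). Of the ligands that were not chosen, Ccl25, also named after its values were seen, was level, at 8.23 and 9.04, 8.16 and 8.52, and 8.33 and 9.12 CPM.

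Markers of several other cell types differed between tissues. The 8 exocrine genes, all detected, summed to 104 and 351 CPM in islet IGRP-, 38.3 and 124 in islet IGRP+, and 2.91 and 2.03 in spleen IGRP+. Ctrb1 was the most abundant in islet IGRP-, Clps in islet IGRP+ Round 1, and Prss2 in islet IGRP+ Round 2 and in spleen. Called higher against spleen were 8 of 8. All but Prss2 had 0 counts in spleen and passed the filter on low counts through the islet groups alone. The calls of those genes therefore add no support. Of 6 endocrine genes, all detected, the sums were 3.26 and 10.7, 5.44 and 13.9, and 0.104 and 0.145 CPM. Ins2 led in islet IGRP- Round 1 and in both islet IGRP+ libraries. In islet IGRP- Round 2 it was Sst (5.68 CPM, against 1.85 for Ins2), and in spleen only Chga was counted. The 10 myeloid genes, all detected, summed to 193 and 205, 206 and 237, and 188 and 206 CPM, most of it Cst3 (146 and 162, 183 and 194, 173 and 189.8 CPM). Of 7 tested, 2 were called higher against spleen, both named after their values were seen: H2-Aa (21.8 and 14.9, 3.23 and 10.3, 0.104 and 0.290 CPM) and Fcer1g (2.47 and 3.66, 0.510 and 1.00 CPM, and 0 in spleen). The sum thus follows Cst3 and not these 2 genes. With 0 counts in spleen, Fcer1g passed the filter on low counts through the islet groups alone, so its call adds no support. The 5 NK genes summed to 120 and 120, 154 and 219, and 199 and 288 CPM, led by Eomes, which CD8 T cells also make. The 4 B cell genes, all detected, summed to 46.7 and 41.6, 15.3 and 16.8, and 75.5 and 62.2 CPM, led by Ighm. The γδ T cell list of 4 reached at most 39.7 CPM (led by Tcrg-C2), the endothelial list of 3 at most 21.3 (Pecam1), the collagen list of 4 at most 2.04 (Col1a1) and the erythroid list of 4 at most 1.01 (Hbb-bs). Kept cells with at least 5 UMIs of another type's list, and more of them than of the CD8 T cell list, numbered 45 and 146 in islet IGRP-, 3 and 10 in islet IGRP+, and 0 in spleen. They held at most 2.41% of any chemokine's UMIs in a library (Cxcl10 in islet IGRP- Round 2). With such cells left out, every chemokine kept its direction and its side of the threshold in both comparisons. The part of free RNA from other cells in these differences was not tested.

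T-cell receptor sequences allowed the same clone, defined by its α and β CDR3 nucleotide sequences together, to be followed in both tissues of a round. Clones with at least 10 kept cells in each tissue numbered 14 in Round 1 (579 islet and 1187 spleen cells) and 19 in Round 2 (1022 and 1196). Clones of a round share its libraries, so their counts are descriptions. Ccl5 was lower in islets than in spleen in 14 of 14 and 19 of 19 clones, with median CPM of 17098 and 39281 in Round 1 and 16224 and 33036 in Round 2. Ccl4 was lower in islets in 14 of 14 and 18 of 19 clones, with medians of 222 and 1418 and of 298 and 821. The direction found for the library sums was thus found clone by clone. Ccl3 was lower in islets in 14 of 14 and 18 of 19 clones (medians 49.6 and 156, 33.9 and 169.9).

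Xcl1 was higher in islets in 13 of 14 clones of Round 1, with median CPM of 435 in islets and 73.9 in spleen, and in 18 of 19 of Round 2, with 524 and 58.5. Cxcl10 was higher in islets in 9 of 14 clones of Round 1 (2 lower, 3 equal) and 17 of 19 of Round 2 (2 lower). Its median CPM was 16.9 in islets and 8.92 in spleen in Round 1, and 24.8 and 0 in Round 2. Some of these directions rest on 1 or 2 islet UMIs against 0 in spleen. Ccl1 was detected in the islet cells of 3 and 5 clones and in the spleen cells of 0. When edgeR was run on the cells of clones found in both tissues alone, 1622 genes were called, and Xcl1, Cxcl10, Ccl3 and Ccl4 kept their calls and directions, while Ccl1 gave no value.

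**Figure D4:**
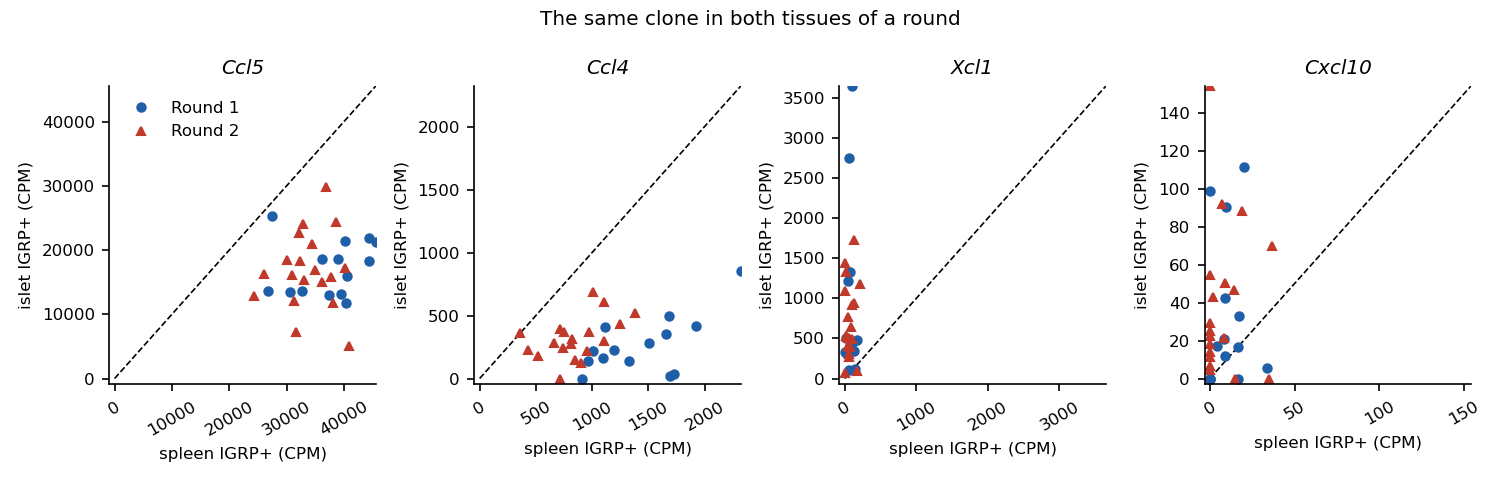
Each point is a clone with at least 10 cells in both tissues of its round, with its CPM in spleen IGRP+ cells on the horizontal axis, its CPM in islet IGRP+ cells on the vertical axis and a dashed line of equality. All clones lie below the line for Ccl5 (medians 17098 against 39281 CPM in Round 1), and for Xcl1 13 of 14 and 18 of 19 lie above it.

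Clone size also went with detection. In islet IGRP-, cells whose clone had a single member in the library were compared with cells of clones of at least 2, after thinning. Ccl5 was in 35.8% and 33.8% of the former and 83.4% and 82.6% of the latter. Ccl4 was in 3.32% and 2.06% against 11.0% and 11.4%, and Xcl1 in 5.84% and 4.33% against 21.6% and 19.9%. Each of these 3 genes was more often found in expanded clones, in both rounds. Cxcl10 differed little, at 1.59% and 3.15% against 2.56% and 3.41%. In spleen IGRP+ the gap was wider for Ccl4 (6.37% and 3.70% against 55.6% and 41.95%) and Ccl5 (24.7% and 32.7% against 100% and 98.9%), whereas Xcl1 had 2.39% and 3.70% against 5.79% and 5.68%. In islet IGRP+, only 12 and 14 cells were of clones of 1, too few to compare. By the study's account, tetramer-negative bystander clones in islets and central memory clones in spleen were nearly all of 1 cell. Clone size and cell state therefore cannot be told apart here.

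By position, Ccl3, Ccl4 and Ccl5 lie on mouse chromosome 11 of build GRCm38 (GENCODE vM21). Ccl3 (ENSMUSG00000000982, 83647844 to 83649355, minus strand) and Ccl4 (ENSMUSG00000018930, 83662584 to 83664683, plus strand), the pair with the highest coexpression ratio in islets when Ccl1 is set aside, are 13228 bases apart, each with 3 exon blocks. Ccl5 (ENSMUSG00000035042, 83525778 to 83530518, minus strand) lies 117325 bases from Ccl3. Ccl1 (ENSMUSG00000020702) is on the same chromosome. Xcl1 (ENSMUSG00000026573) is on chromosome 1, at 164931644 to 164935527 on the minus strand, and Cxcl10 (ENSMUSG00000034855) on chromosome 5, at 92346638 to 92348889 on the minus strand. Exons of Xcl1 overlap those of Gm20743 and exons of Cxcl10 those of Art3, so the split of their reads between these genes is uncertain.

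Xcl1, Cxcl10 and Ccl1 were higher in islet IGRP+ than in spleen, although the call of Ccl1 adds no support. The promoters of these 3 genes are shown. They run from 250 bases before to 50 bases after the gene's start (RefSeq, build GRCm38.p6; 4 of the 6 genes had one in the table, without Ccl4 and Ccl5) and are read 5′ to 3′ on the gene's strand. Xcl1 is at chr1:164935473-164935772, Cxcl10 at chr5:92348840-92349139 and Ccl1 at chr11:82179763-82180062, all on the minus strand. Capitals mark letters that match TGANTCA, the AP-1 motif, or an NF-κB motif made of GGG, any 3 letters and TTCC, with both strands searched.
Xcl1: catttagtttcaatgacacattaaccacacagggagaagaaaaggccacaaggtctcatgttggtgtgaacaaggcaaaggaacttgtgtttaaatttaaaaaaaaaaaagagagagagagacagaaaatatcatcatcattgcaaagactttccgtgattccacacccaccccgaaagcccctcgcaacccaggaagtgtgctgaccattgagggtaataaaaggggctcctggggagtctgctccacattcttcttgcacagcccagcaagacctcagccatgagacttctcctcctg
Cxcl10: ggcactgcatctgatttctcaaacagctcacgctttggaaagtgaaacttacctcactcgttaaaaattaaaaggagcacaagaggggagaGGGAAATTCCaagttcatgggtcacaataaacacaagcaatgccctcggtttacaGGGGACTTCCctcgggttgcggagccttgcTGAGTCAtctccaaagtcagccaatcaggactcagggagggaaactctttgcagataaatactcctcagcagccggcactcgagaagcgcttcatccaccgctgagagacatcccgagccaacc
Ccl1: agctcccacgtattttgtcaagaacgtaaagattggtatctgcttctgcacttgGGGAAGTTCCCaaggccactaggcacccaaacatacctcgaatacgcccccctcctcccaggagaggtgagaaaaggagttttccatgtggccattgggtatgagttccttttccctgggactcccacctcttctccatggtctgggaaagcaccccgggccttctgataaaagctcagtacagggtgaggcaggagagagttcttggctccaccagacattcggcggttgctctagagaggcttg
Of 32851 promoters of this length, 7.81% held the AP-1 motif and 5.56% the NF-κB motif. Cxcl10 had 1 match of the AP-1 motif (bases 177 to 183) and 2 of the NF-κB motif (bases 92 to 101 and 147 to 156), none of which overlapped. Ccl1 had 2 matches of the NF-κB motif on opposite strands that overlapped (bases 55 to 64 and 56 to 65), and Xcl1 had none of either motif. Ccl3, called lower in islet IGRP+, had none either. A match is a description of the letters and not of a bound site.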

How the data were processed

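The count matrices were deposited by the authors as raw UMI counts, made from the reads of the 6 single-cell RNA libraries with Cell Ranger (5.0.1 per the file headers) on mm10, and the T-cell receptor contigs were deposited beside them. From these, kept cells were selected by mitochondrial share and genes detected, and counts were summed per library, normalized by TMM and fitted in edgeR 4.0.16 (R 4.3.3) with the 3 groups as the design, at an adjusted p below 0.05. Genes were filtered with edgeR's filterByExpr. Shares, coexpression and correlations were computed in Python 3.11.15 (numpy 2.4.6, pandas 2.3.3, scipy 1.17.1; figures in matplotlib 3.10.9), with thinning at random seed 1. The code was tested on simulated data.

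Rounds pair libraries, since each pool of mice gave all 3: over 5459 genes, the differences between rounds correlated at 0.852, 0.862 and 0.821 between the pairs of groups. Alternatives covered this pairing, the libraries in the fit, size factors, DESeq2 1.42.0, filters on genes and cells, T-cell receptor chains, cell types, clones, thinning depth and each library left out. Doublets were not called, cells with more than 1 productive β chain being left out in an alternative, and ambient RNA was not removed. Other genes were named by rule, as the 6 most abundant of each of 18 lists with at least 20 CPM in a group and the 3 genes most like each chemokine. The chemokines and lists were chosen with earlier results of these data known, and some genes of the lists are not reported here.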

Additional observations from a re-analysis of the deposited data

How the results depend on the processing

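Every chemokine kept the direction of its log2 fold change in every alternative of both comparisons, except Ccl1 against islet IGRP- (-0.07) without the cell richest in it of each library, an alternative chosen after seeing the data. Of 148 log2 fold changes under alternatives other than left-out libraries, 138 kept their side of the threshold, 9 passed it and 1 lost it, and of 72 with a library left out 65 kept it and 7 lost it. With the round as a block, which pairs libraries of a pool, 3442 of 11277 genes were called between the islet groups and 6215 against spleen. The log2 fold changes of Ccl3 (1.13), Ccl4 (0.80), Ccl5 (1.04) and Xcl1 (1.04) then passed against islet IGRP-, and that of Ccl5 (-0.67) against spleen. The block changed no other call of a chemokine. DESeq2 called 504 genes between the islet groups, with Ccl5 (1.06) and Xcl1 (1.07), and without the filter on low counts 711 were called, with Ccl3 (1.09) and Xcl1 (1.03). The islet count of 134 was 24 with the 4 libraries compared alone and 84 with only cells holding a β chain. Against spleen, the count of 3004 was 1622 in clones found in both tissues, where Ccl1 gave no value, as with cells weighted equally, and Ccl3 (-1.32, adjusted p = 0.0508 by edgeR; 1.05e-06 to 0.156 over all alternatives) lost its call with only β-chain cells.

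With 1 library left out, where the lone library of its group is assumed to vary like those of the other groups, 0 to 30 genes were called between the islet groups and 892 to 2050 against spleen. The log2 fold changes against spleen then ran from -1.62 to -1.02 for Ccl3 and from -1.88 to -1.14 for Ccl4, the 2 genes that lost calls. Of 60 differences in shares under other thinning depths or cells, 36 stayed within the spread of replicates and 24 moved, and of 72 coexpression ratios 38 stayed, 33 moved and 1 reversed: Ccl4 with Cxcl10 in islet IGRP- was 1.01 without thinning. The causes of these changes were not tested. The 2 pools per group, the shallower spleen cells and the few UMIs of Ccl1 and Cxcl10 limit what can be separated.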
